A study of Mus musculus with 19 samples.

Results

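The cerebellum of mice that had lost Gsα through a human GFAP promoter Cre (hGFAP-Cre) was compared with wild-type cerebellum by RNA sequencing. The samples were chosen by their group labels: the 8 libraries of the knockout (hGFAP-Gnas 1 to 8) and the 3 wild-type libraries (Ctrl 1 to 3) held in the same deposited table, 11 of the 19 libraries of the series. All 11 were cerebellum of C57BL/6 mice at postnatal day 60, and the study's design counts each library as a separate mouse. The hGFAP-Gnas mice carried a conditional knockout of Gsα driven by hGFAP-Cre, and the Ctrl mice are described only as wild type, so whether they carried a Cre transgene or a floxed Gnas allele is not given in the sources used here, nor is the sex of any mouse. The other 8 libraries, Olig1-Gnas, also from postnatal day 60, lost Gsα through Olig1-Cre and enter only the last comparison. The deposited table is named for tumors, but the labels give whole cerebellum for both groups and no tumor content.

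Gsα, encoded by Gnas, is the G protein subunit that couples many receptors to adenylyl cyclase, which makes cAMP and so activates protein kinase A. Protein kinase A restrains the hedgehog pathway by marking GLI transcription factors for processing, and Sonic hedgehog from Purkinje cells is the main mitogen of granule neuron progenitors in the outer layer of the developing cerebellum. The human GFAP promoter is active in radial glia and other neural precursors, so hGFAP-Cre recombines in the ancestors of granule neurons and of other neurons and glia, not only in astrocytes. By the adult age the outer layer of dividing progenitors has normally disappeared, and medulloblastomas of the hedgehog class arise from such progenitors. The title of the series names that tumor and Gsα as a suppressor of it.

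The libraries were not alike in ways that the group labels do not give. Depth, read from the steps between low values and set to 1.00 in Ctrl 2, was near 1 in Ctrl 1 and hGFAP-Gnas 1 to 4 (0.888 to 1.07) and lower in Ctrl 3 and hGFAP-Gnas 5 to 8 (0.339 to 0.430). Ctrl 3 and hGFAP-Gnas 3 had Xist and no Y-linked signal, and the other 9 libraries had Y-linked signal. Ctrl 3 stood apart from Ctrl 1 and 2 in Ttr, a product of the choroid plexus, with 1195 FPKM against 0.184 and 7.08, and in Prm1, protamine 1 of sperm, with 73.2 against 0.380 and 0.964. Prm1 was at 48.4 to 199 FPKM in the hGFAP-Gnas libraries, so by this gene Ctrl 3 sat inside the range of the knockouts. Sequence of the protamine 1 gene is used at the end of some Cre transgenes, and whether that is the source of these reads was not tested. Genes of the Hox family, which mark brainstem and spinal cord, were low throughout but reached 4.95 FPKM for Hoxb5 in hGFAP-Gnas 4. hGFAP-Gnas 1 lay close to Ctrl in many gene groups. hGFAP-Gnas 5 and 6 were the most alike of the knockouts, with a median absolute difference of 0.125 on the log2 scale over the genes tested. Ttr was at 1.59 and 285 FPKM in them, but a choroid plexus product cannot show that they came from separate mice. They were counted as separate samples because the study's design does so, and this was not tested.

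The targeted gene did not check the labels. Gnas was listed at 0 in Ctrl 1 and 3 and at 798 FPKM in Ctrl 2. Among the knockouts it was listed at 0 in 7 libraries and at 40.9 FPKM in hGFAP-Gnas 5. The values of both groups therefore overlap at 0, and an exact 0 in a table of this kind can be a failed estimate rather than absent RNA. The difference of the group means was -2.54 on the log2(FPKM + 1) scale, with p = 0.273 in a 2-sided exact permutation test over 165 arrangements of the libraries, which allows no p below 0.00606. Without Ctrl 2 the difference was 0.67, so its direction rested on that 1 library. Mbp, the myelin basic protein gene that every oligodendrocyte uses, was likewise listed at 0 in all 11 libraries.

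In the libraries labelled as loss of Gsα through hGFAP-Cre, most tested genes of hedgehog targets, cell division, reactive astrocytes and phagocytes were higher than in those labelled wild type, and most genes of mature granule, Purkinje and inhibitory neurons were lower. Levels are given as FPKM, fragments per gene scaled to the length of its transcripts and to all fragments mapped in the library. Differences are means of log2(FPKM + 1) in hGFAP-Gnas minus Ctrl with their standard error over 8 and 3 libraries, and a gene is called when limma's p, adjusted by the Benjamini-Hochberg method over 14305 genes, was under 0.05. Of these 14305 genes, 5570 were called (38.9%), 3738 of them higher (26.1%) and 1832 lower (12.8%). At least a 2-fold change was met by 2062 genes called higher (14.4%) and 1054 called lower (7.37%). In 2176 genes every knockout library lay above every Ctrl library (15.2%), and in 1225 every one lay below (8.56%). All counts over gene lists below are to be read against these shares. The lists and their members were chosen with earlier results of these data known. A count above a share is thus a description and not independent support. Genes were tested if they had at least 1 FPKM in at least 3 of the 11 libraries. A gene near 0 in Ctrl passed only through the knockouts, so it could hardly be called lower. In bulk tissue, fewer cells of a type and less RNA per cell cannot be told apart.

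The size of the difference varied widely among the 8 knockout mice. Against the mean of the Ctrl libraries, hGFAP-Gnas 1 had 559 genes at least 2-fold higher and 278 at least 2-fold lower, and hGFAP-Gnas 3 had 3692 and 2067. hGFAP-Gnas 7 had 1794 and 598, and hGFAP-Gnas 2, 4, 5, 6 and 8 had 2602 to 3026 higher and 1050 to 2267 lower. Single Ctrl libraries differed from the mean of the other two by 120 to 278 genes higher and 119 to 192 lower. Of the 3738 genes called higher, hGFAP-Gnas 1 lay above all Ctrl libraries in 2133, and each other knockout did in 3663 to 3734. Without hGFAP-Gnas 1 the number of called genes was 8164. Without Ctrl 1, 2 or 3 it was 1049, 818 and 1924, so the count depended on having 3 Ctrl libraries. Within the deeper libraries alone (2 Ctrl and 4 hGFAP-Gnas, hGFAP-Gnas 1 among them) 9 genes were called, and with depth class as a term 5257. The shallower libraries hold 1 Ctrl and 4 hGFAP-Gnas, so a fit to them has no Ctrl spread. No conclusion is drawn from its count. These subsets differ in more than depth.

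**Figure D1:**
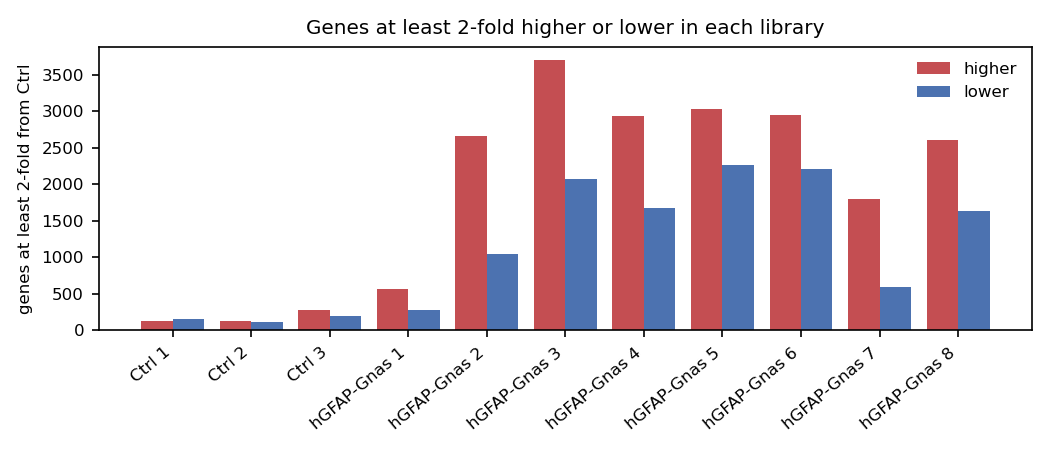
Number of genes at least 2-fold higher or lower in each library (vertical axis, of 14305 genes tested), with each knockout library set against the mean of the 3 Ctrl libraries and each Ctrl library against the mean of the other two. hGFAP-Gnas 1, with 559 higher and 278 lower, sits nearer to the Ctrl libraries than to the other 7 knockouts.

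With all 3 Ctrl libraries in the fit, genes of Gs and cAMP signaling were called lower more often than higher. Of 23 tested members, 11 fell, 3 rose and 9 were not called, with a median log2 difference of -0.73 against 0.19 over all genes. Without Ctrl 1, 2 or 3 the members called lower numbered 0, 0 and 2 and those called higher 2, 1 and 3, so the excess of lower calls did not hold, and with 1 hGFAP-Gnas library left out 6 to 13 were lower. Adcy1, the calcium-stimulated adenylyl cyclase of neurons, was at 296, 242 and 250.1 FPKM in Ctrl 1, 2 and 3 and at 12.2 to 261 (median 38.4) in hGFAP-Gnas. The knockouts spanned a wide range, 7 of them lay below every Ctrl library, and hGFAP-Gnas 1 was inside the Ctrl range. The difference for Adcy1 was -2.54 ± 0.83 (adjusted p = 0.0344). Gnal, the relative of Gsα that olfactory and striatal neurons use, was at 45.1, 39.6 and 53.6 in Ctrl and 3.17 to 34.1 (median 7.67) in hGFAP-Gnas, with no overlap. It fell by 2.21 on the log2 scale (adjusted p = 0.0170). Pde10a, a phosphodiesterase that breaks down cAMP and cGMP, changed by -2.06 ± 0.45, and Prkar1b, a neuronal regulatory subunit of protein kinase A, by -1.74 ± 0.54. Both kinase subunits Prkaca and Prkacb, which carry the catalytic activity, were not called (-0.30 ± 0.15 and -0.35 ± 0.18). The members that rose were Prkar2b, a further regulatory subunit (1.19 ± 0.21), the phosphodiesterase Pde1a (1.13 ± 0.30) and the cyclase Adcy6 (0.75 ± 0.15). Of the 7 called genes named here, 2, 1 and 4 kept the call when Ctrl 1, 2 or 3 was left out, and Adcy1 lost the call without hGFAP-Gnas 3, 4, 5 or 6.

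Immediate early genes, several of which respond to cAMP through CREB, moved in both directions: of 14 tested, 6 fell and 2 rose. The number that fell was 1, 1 and 7 with Ctrl 1, 2 or 3 left out. Bdnf, a neurotrophin, was at 3.65, 3.73 and 2.66 FPKM in Ctrl and 0.264 to 1.67 (median 0.432) in hGFAP-Gnas, and every knockout was below every Ctrl library (-1.50 ± 0.22, adjusted p = 0.00545). Arc, a synaptic activity gene, was at 8.63, 8.37 and 8.65 in Ctrl and 0.681 to 5.31 (median 1.75), again without overlap (-1.62 ± 0.43, adjusted p = 0.0175). Nr4a1, Nr4a3, Egr4 and Dusp1 also fell, but Ctrl 3 was far below Ctrl 1 and 2 in all of them. Dusp1, a phosphatase of MAP kinases, shows this with 49.5, 79.6 and 12.2 in Ctrl and 13.9 to 18.6 in hGFAP-Gnas, where the groups overlap. The quick-response gene Fos was at 23.4, 47.5 and 2.36 in Ctrl and 2.17 to 7.06 in hGFAP-Gnas and was not called (adjusted p = 0.0615). Egr2 and Egr3 rose, with 0.0541, 0.0412 and 0.0733 FPKM of Egr2 in Ctrl and 0.104 to 3.66 (median 2.60) in hGFAP-Gnas. When Ctrl 1, 2 or 3 was left out, 2, 2 and 6 of these 8 named calls held, and Dusp1 lost the call without hGFAP-Gnas 3, 4, 5, 6, 7 or 8.

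Most of the tested targets of hedgehog signaling rose. Of 11 tested, 8 rose, 0 fell and 3 were not called, with a median difference of 3.37. Gli1, the transcription factor that is itself the best-known readout of the pathway, was at 8.51, 7.26 and 7.20 FPKM in Ctrl and 20.1 to 83.0 (median 57.0) in hGFAP-Gnas. Every knockout lay above every Ctrl library, hGFAP-Gnas 1 with 20.1 and the other 7 with 33.1 to 83.0. Gli1 rose by 2.55 ± 0.36 (adjusted p = 0.00520). Mycn, which drives division of granule progenitors, was at 2.05, 2.19 and 1.44 in Ctrl, 3.54 in hGFAP-Gnas 1 and 46.3 to 153 in the others (4.48 ± 0.87, adjusted p = 0.00777). Ccnd2, the D cyclin of these progenitors, rose by 5.50 ± 0.87 and was listed at 0 in Ctrl 2 beside 1.46 and 3.03 in Ctrl 1 and 3. Its levels in hGFAP-Gnas were 7.22 to 210.4 (median 151), all above Ctrl.

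Other called targets included Sfrp1, Cdk6, Ccnd1 and Hhip. Sfrp1, a secreted WNT inhibitor, was at 3.04, 1.95 and 6.77 FPKM in Ctrl and 8.75 to 378 (median 246) in hGFAP-Gnas (5.09 ± 0.94, adjusted p = 0.00730). Cdk6, the kinase partner of D cyclins, was under 0.3 in each Ctrl library and at 0.732 to 41.8 in hGFAP-Gnas, with all knockouts above all Ctrl libraries (3.74 ± 0.92). Ccnd1 was at 14.0, 11.9 and 8.59 in Ctrl and 9.09 to 289.8 in hGFAP-Gnas, where hGFAP-Gnas 1 fell inside the Ctrl range (3.37 ± 0.84, adjusted p = 0.0143). Hhip, the secreted inhibitor that binds hedgehog ligand, rose least of the called targets, from 2.21, 1.70 and 1.13 to 2.32 to 6.72 (1.04 ± 0.26). Ptch1, the main receptor and feedback inhibitor, was at 51.7, 46.9 and 48.1 in Ctrl and 36.3 to 150.4 (median 120.1) in hGFAP-Gnas. In 7 knockouts Ptch1 was above every Ctrl library and in hGFAP-Gnas 2 it was below (0.98 ± 0.37), so it just missed the threshold (adjusted p = 0.0555). Nkx2-2 and Bcl2 were not called either (0.44 ± 0.29 and 0.34 ± 0.17). The number of targets called higher was 6, 5 and 6 without Ctrl 1, 2 or 3, and without hGFAP-Gnas 1 it was 9.

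Components of the pathway divided. Of 15 tested, 7 rose and 3 fell. Gli2, the main activator among the GLI factors, was at 1.55, 1.68 and 1.43 FPKM in Ctrl and 3.08 to 23.2 (median 18.5) in hGFAP-Gnas, all above Ctrl (2.52 ± 0.48, adjusted p = 0.00770). Smo, the transducer at the cilium, rose from 7.20, 7.70 and 9.25 to 8.71 to 51.7 with hGFAP-Gnas 1 inside the Ctrl range (1.76 ± 0.40), and Sufu, which holds GLI factors inactive, rose from 7.25, 7.76 and 7.47 to 10.8 to 42.3 with no overlap (1.71 ± 0.35). Evc, Evc2 and Kif7, which act at the base or along the cilium, rose by 1.56, 1.02 and 1.14. The ligand Shh itself, which Purkinje cells make, was at 2.79, 2.65 and 1.17 in Ctrl and 0.0519 to 1.45 (median 0.293) in hGFAP-Gnas and fell (-1.08 ± 0.32, adjusted p = 0.0241). Cdon, a coreceptor, fell from 10.5, 7.73 and 8.02 to 0.428 to 12.8 with hGFAP-Gnas 1 above Ctrl (-1.73 ± 0.62, adjusted p = 0.0466), and Spop, an adaptor for degradation of GLI factors, fell by 0.65 on the log2 scale. Gli3, which after cleavage promoted by protein kinase A acts as the main repressor, was at 1.49, 1.39 and 1.27 in Ctrl and 0.324 to 1.83 in hGFAP-Gnas and was not called (-0.49 ± 0.23, adjusted p = 0.107). Without Ctrl 1, 2 or 3 the members called higher numbered 2, 2 and 3 and those called lower 0, 0 and 1. With 1 hGFAP-Gnas library left out these counts were 7 to 11 and 1 to 4, and Cdon lost the call without hGFAP-Gnas 2, 3, 4, 5, 6 or 8 and Spop lost the call without hGFAP-Gnas 3, 4, 5, 6 or 8.

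**Figure D2:**
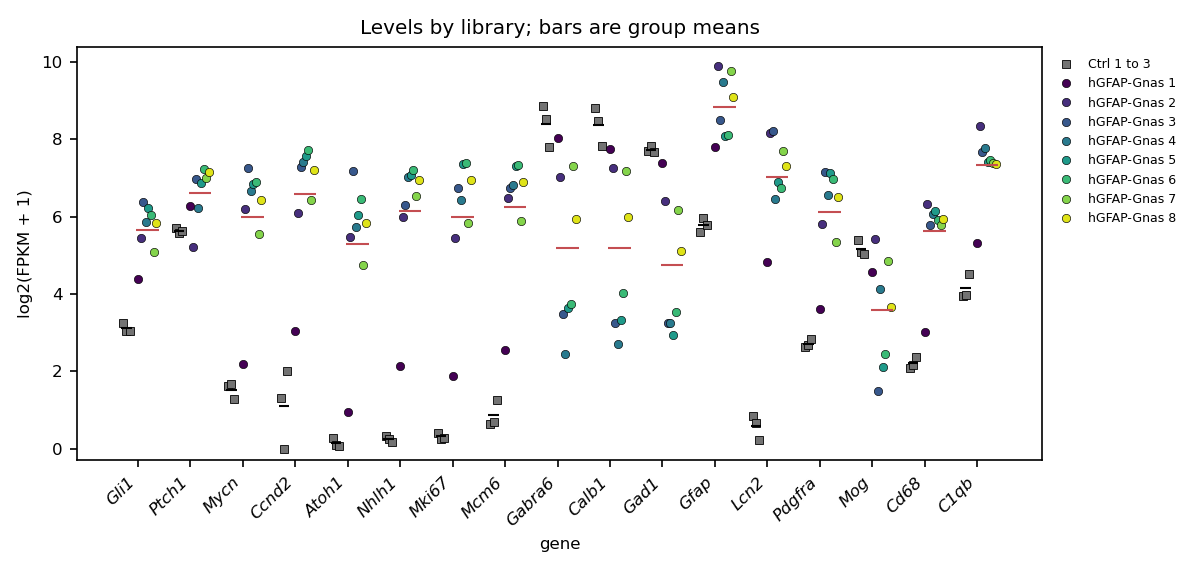
Level of 17 genes on the log2(FPKM + 1) scale (vertical axis) in each Ctrl library (grey squares) and each hGFAP-Gnas library (colored circles, 1 color for each library), with bars at the group means. hGFAP-Gnas 1 (darkest circle) is the lowest knockout in Gli1, Mycn, Ccnd2, Mki67 and Mcm6, and hGFAP-Gnas 3 to 6 are the lowest in Gabra6, Calb1 and Gad1.

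Granule neuron progenitor genes split into genes that rose by a large factor and genes that adult granule neurons also express, which mostly were not called. Of 16 tested, 8 rose, 1 fell and 7 were not called (median 0.99), and the number that rose was 5, 5 and 5 without Ctrl 1, 2 or 3. Atoh1, the factor that specifies granule progenitors and is turned off on leaving the cycle, was at 0.198, 0.0603 and 0.0536 FPKM in Ctrl, 0.937 in hGFAP-Gnas 1 and 25.8 to 145 in the other 7 (5.16 ± 1.01, adjusted p = 0.00796). All knockouts were above all Ctrl libraries, by far the least in hGFAP-Gnas 1. Igfbpl1 rose by 6.29 ± 0.90, Insm1, a factor of newly committed neurons, by 6.04 ± 0.79, Nhlh1 by 5.90 ± 0.89 and Barhl1, a target of Atoh1, by 4.09 ± 0.62, and these 4 genes had no overlap between the groups. Insm1 shows the pattern with 0.543, 0.834 and 0.293 in Ctrl, 7.91 in hGFAP-Gnas 1 and 83.4 to 219 in the others. Cxcr4, the receptor that holds progenitors near the meninges, rose by 3.69 ± 0.86, Nhlh2 by 2.29 ± 0.61 and Meis1 by 1.38 ± 0.38, each with hGFAP-Gnas 1 in or below the Ctrl range. Zic1, Zic2, Zic5, Pax6, Neurod1, Barhl2 and Tlx3 were not called, with differences of -0.24 to 0.60. Zic1 was at 263, 272 and 191 in Ctrl and 159 to 461 in hGFAP-Gnas (0.22 ± 0.31). With Ctrl 1, 2 or 3 removed in turn, 5, 5 and 5 of the 8 called genes named here still passed, and each of the 8 did without any single hGFAP-Gnas library.

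Genes of young, migrating neurons rose alongside. Of 17 tested, 11 rose and 0 fell (median 1.59). Dcx, a microtubule protein of migrating neurons, was at 0.975, 1.05 and 1.31 FPKM in Ctrl and 3.96 to 104 (median 67.4) in hGFAP-Gnas (4.47 ± 0.80, adjusted p = 0.00699). Cd24a, Sox11, Sox4 and Marcksl1 rose by 5.25, 4.25, 3.58 and 3.84, and in all 5 genes every knockout was above every Ctrl library. Stmn1 and Tubb3, which granule neurons keep at a lower level, rose by 2.04 ± 0.58 and 1.07 ± 0.30, with hGFAP-Gnas 1 below or inside the Ctrl range. Cntn2, which marks the inner band of the outer layer where cells have just left the cycle, was at 54.9, 54.7 and 60.8 in Ctrl and 15.2 to 133 in hGFAP-Gnas. The knockouts lay on both sides of Ctrl, lowest in hGFAP-Gnas 3 and highest in hGFAP-Gnas 7, and Cntn2 was not called (0.35 ± 0.55). Of 12 tested stem cell genes, 4 rose (33.3%) and 2 fell (16.7%), near the 26.1% and 12.8% of all genes. Nes, the filament nestin, rose from 1.46, 1.66 and 3.14 to 5.93 to 34.5 (2.84 ± 0.46) and Hes5, a Notch target, from 0.908, 1.13 and 1.14 to 2.43 to 12.2 (1.78 ± 0.33), while Sox2 (0.11 ± 0.22) was not called. Young neuron genes called higher numbered 5, 5 and 8 when Ctrl 1, 2 or 3 was left out, and stem cell genes 2, 2 and 3.

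Every tested gene of DNA replication and of mitosis rose. The counts were 21 of 21 for replication (median 2.83) and 17 of 17 for mitosis (median 4.46), where 26.1% of all genes were called higher. The whole mitosis list summed to only 5.06 to 7.65 FPKM in the Ctrl libraries. Members near 0 in Ctrl passed the filter only through the knockouts and could hardly have been called lower. The mitosis count is therefore a description and not a test against that share. In mitosis every knockout was above every Ctrl library in 17 of 17 genes, and in replication in 13 of 21. Mki67, the classic mark of cells in cycle, was at 0.325, 0.188 and 0.215 FPKM in Ctrl 1, 2 and 3, 2.70 in hGFAP-Gnas 1 and 43.0 to 165 in the other 7. hGFAP-Gnas 1 was thus above Ctrl but far below every other knockout, and the difference was 5.69 ± 0.95 (adjusted p = 0.00628). Top2a, topoisomerase II of mitotic chromosomes, was at 0.343, 0.318 and 0.262 in Ctrl and 2.69 to 176 (median 92.9) in hGFAP-Gnas (5.74 ± 0.96, adjusted p = 0.00628). Birc5, Ccnb1, Cdk1 and Plk1, which run mitosis, rose by 5.12, 4.86, 4.61 and 3.69. Mcm6, a subunit of the replicative helicase, was at 0.540, 0.618 and 1.41 in Ctrl and 4.85 to 159.6 (median 109) in hGFAP-Gnas with no overlap (5.39 ± 0.84, adjusted p = 0.00596). Pcna, the sliding clamp, was already at 39.7, 34.3 and 34.0 in Ctrl and reached 39.6 to 304 (2.37 ± 0.53), with hGFAP-Gnas 1 inside the Ctrl range. Leaving out Ctrl 1, 2 or 3 gave 17, 16 and 17 mitosis genes and 13, 10 and 18 replication genes called higher.

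The promoters of these genes are shown because so many members moved together. The RefSeq promoter table (GRCm38.p6) holds 15 of the 17 mitosis genes and 16 of the 21 replication genes. Of the bases before the start of transcription, 250 are printed for the member with the largest difference in each list, in lower case with matches in capitals. The motifs searched on both strands were CCAAT, bound by NF-Y, TTTGAA or TTCGAA, the cell cycle homology region, and TTCGCGC or TTGGCGC or TTCCCGC or TTGCCGC, bound by E2F factors.
Top2a, chr11:99024190-99024439, minus strand: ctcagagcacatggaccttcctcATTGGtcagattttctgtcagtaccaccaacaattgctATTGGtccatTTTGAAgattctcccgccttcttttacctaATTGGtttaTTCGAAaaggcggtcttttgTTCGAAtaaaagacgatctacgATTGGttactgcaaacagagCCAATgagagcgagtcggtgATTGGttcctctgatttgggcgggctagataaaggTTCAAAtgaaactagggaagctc
Mcm6, chr1:128359706-128359955, minus strand: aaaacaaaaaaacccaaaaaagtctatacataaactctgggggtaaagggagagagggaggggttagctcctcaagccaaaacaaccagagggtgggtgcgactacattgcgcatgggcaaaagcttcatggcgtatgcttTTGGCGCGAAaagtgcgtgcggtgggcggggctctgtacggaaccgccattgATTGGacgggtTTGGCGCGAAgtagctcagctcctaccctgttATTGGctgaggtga
The Top2a stretch holds 6 copies of CCAAT, 4 of the cell cycle homology region and 0 of the E2F motif. The Mcm6 stretch holds 2 copies of CCAAT, 0 of the cell cycle homology region and 4 of the E2F motif, in pairs that overlap on opposite strands. Counted over the full table window, which runs 50 bases past the start, CCAAT was in 13 of 15 mitosis promoters (86.7%), 11 of 16 replication promoters (68.8%) and 37.9% of all 27025 promoters. The cell cycle homology region was in 12 of 15 mitosis promoters (80.0%), 4 of 16 replication promoters (25.0%) and 19.4% of all. The E2F motif was in 3 of 15 (20.0%), 11 of 16 (68.8%) and 9.69%. Copies of the E2F motif that shared bases with CCAAT numbered 1 in mitosis and 2 in replication promoters, and 0 copies of the cell cycle homology region did. Of the hedgehog targets, 6 had a promoter in the table and the GLI motif ACCACCC was in 0 of them, against 4.54% of all. A match is a description of these letters and not a bound site.

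Other genes tied to division moved the same way. Of 12 tested genes of homologous recombination, 11 rose, among them Brca1 from 0.412, 0.441 and 0.439 FPKM to 0.582 in hGFAP-Gnas 1 and 6.37 to 22.7 in the others (2.90 ± 0.68) and Fancd2 (2.99 ± 0.63). Rad54l was listed at 0 in Ctrl 1 and 2 and hGFAP-Gnas 1, so no fold is drawn from it. Of 18 chromatin regulators, 11 rose, led by Uhrf1, which maintains DNA methylation at forks (5.04 ± 0.86), Hmgb2 (4.58 ± 0.75) and Ezh2, the methyltransferase of Polycomb (3.08 ± 0.64). Ezh2 was at 5.07, 4.54 and 5.62 in Ctrl and 6.55 to 91.4 in hGFAP-Gnas, all above Ctrl. Among 18 inhibitors and p53 targets 10 rose and 1 fell. Trp53 itself rose from 9.15, 8.84 and 9.04 to 13.1 to 78.7 with no overlap (2.36 ± 0.44, adjusted p = 0.00730), Cdkn2c, the p18 inhibitor of cyclin-dependent kinases, by 3.25 ± 0.58, and Cdkn2a, which encodes p16 and p19Arf, from 0.327, 0.111 and 0.148 to 0.408 to 17.2 (2.43 ± 0.60), highest in hGFAP-Gnas 2. Eda2r, a receptor induced by p53, rose from 0.0819, 0.125 and 0.0890 to 1.10 to 24.2 (3.50 ± 0.63). Cdkn1a, the p21 inhibitor, ran against the others: it was highest in hGFAP-Gnas 1 (106 FPKM) and at 22.3 to 74.6 in the rest, with 14.7, 19.7 and 8.47 in Ctrl (1.55 ± 0.47, adjusted p = 0.0258). Members called higher without Ctrl 1, 2 or 3 numbered 5, 4 and 8 in homologous recombination, 7, 7 and 8 among the chromatin regulators and 5, 5 and 6 among the inhibitors and p53 targets. Of these 11 calls, 7, 7 and 9 stood without Ctrl 1, 2 or 3, and each of the 11 did without any single hGFAP-Gnas library.

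Genes of mature cerebellar neurons were lower, and unevenly so among the mice. Of 14 tested genes of mature granule neurons, 12 fell and 0 rose (median -2.26), against 12.8% of all genes called lower. Gabra6, the GABA receptor subunit that marks mature granule neurons, was at 468, 370.4 and 224 FPKM in Ctrl. In hGFAP-Gnas 1, 2, 7 and 8 it was at 261, 128, 159 and 59.9, and in hGFAP-Gnas 3, 4, 5 and 6 at 10.1, 4.48, 11.4 and 12.4. hGFAP-Gnas 1 fell inside the Ctrl range and 4 mice kept only a small fraction of the Ctrl level, and the difference was -3.21 ± 1.14 (adjusted p = 0.0438). Slc17a7, the vesicular glutamate transporter of granule neurons, was at 249, 308 and 192 in Ctrl and 6.14 to 147 (median 19.4), without overlap (-3.27 ± 0.91, adjusted p = 0.0199). Cbln3 and Calb2 fell by 3.18 and 2.45 on the log2 scale. Rbfox3, the nuclear antigen NeuN, was not called and was at 136, 139 and 130.2 in Ctrl and 59.3 to 181 in hGFAP-Gnas, highest in hGFAP-Gnas 1 (-0.57 ± 0.30). These calls needed all 3 Ctrl libraries: without Ctrl 1, 2 or 3 the number called lower was 0, 0 and 0, and with 1 hGFAP-Gnas library left out it was 4 to 14, highest without hGFAP-Gnas 1. Of the genes named here, Cbln3 and Gabra6 lost the call without hGFAP-Gnas 3, 4, 5, 6 or 8 and Calb2 lost the call without hGFAP-Gnas 4 or 5.

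Purkinje cell genes fell as well. Of 15 tested, 12 fell and 1 rose (median -2.81). Calb1, a calcium buffer that marks Purkinje cells, was at 453, 353 and 226 FPKM in Ctrl and 5.53 to 214 (median 38.8) in hGFAP-Gnas, all below Ctrl (-3.19 ± 1.11, adjusted p = 0.0416). Itpr1, the calcium release channel, was at 655, 531 and 506 in Ctrl and 9.68 to 321 (median 82.0), also without overlap (-2.99 ± 0.98). In both genes hGFAP-Gnas 1, 2, 7 and 8 were higher than hGFAP-Gnas 3 to 6, and hGFAP-Gnas 4 was lowest. Slc1a6, the glutamate transporter of Purkinje dendrites, fell by 2.93 on the log2 scale, and Rora, known from mouse mutants with Purkinje defects, by 2.51. Foxp2 was the exception and rose from 2.25, 1.84 and 1.92 to 4.58 to 12 (1.41 ± 0.24, adjusted p = 0.00677), and Lhx1 was not called (0.78 ± 0.35). Of this list 0, 0 and 2 genes were called lower without Ctrl 1, 2 or 3, and 6 to 13 with 1 hGFAP-Gnas library left out, where Calb1 lost the call without hGFAP-Gnas 3, 4, 5, 6 or 8 and Itpr1 lost the call without hGFAP-Gnas 3, 5 or 6.

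Genes of inhibitory interneurons also fell, 9 of 11 with 0 higher (median -2.33), and 3, 2 and 4 were called lower without Ctrl 1, 2 or 3. Gad1, which makes GABA in Purkinje cells and interneurons alike, was at 205, 226 and 204 FPKM in Ctrl and 6.67 to 167 (median 22.0) in hGFAP-Gnas with no overlap (-2.98 ± 0.92, adjusted p = 0.0283). Kit, expressed by molecular layer interneurons, was at 64.6, 68.0 and 62.1 in Ctrl and 5.57 to 35.4 (median 10.6), all below Ctrl (-2.33 ± 0.47, adjusted p = 0.00851). Slc6a5, the glycine transporter of Golgi cells, fell by 2.55 on the log2 scale. The neuropeptide gene Sst was not called and was at 85.0 in hGFAP-Gnas 1 against 2.08, 7.86 and 12.5 in Ctrl. Eomes, which marks unipolar brush cells, was at 4.95, 12.8 and 7.17 in Ctrl and 0.0774 to 1.25 in hGFAP-Gnas, below Ctrl in all 8, hGFAP-Gnas 1 included at 0.322 (-2.47 ± 0.27, adjusted p = 0.00168). Slc17a6, the vesicular glutamate transporter of nuclear neurons and of young granule cells, rose from 0.799, 0.718 and 10.1 to 12.3 to 28.3 (2.70 ± 0.49). Lhx9 was near 0 in every library but hGFAP-Gnas 1 (9.34 FPKM), and Tcf7l2 was at 36.2 there against 0.944 to 36.2 over all knockouts and 1.19, 1.09 and 1.72 in Ctrl. Both were singled out after their values were seen, and like Sst they were above every Ctrl library in hGFAP-Gnas 1. That library lay above all Ctrl libraries in 2133 of 3738 genes called higher and below all in 1205 of 1832 called lower. It was itself in the fit that made these calls, so the counts are a description and not independent support. Its median difference from Ctrl was 0.19 over the genes called higher, against 0.86 to 1.48 in the other knockouts. Over the genes called lower it was -0.29, against -0.70 to -1.54. Of the 5 called genes named here, 4, 4 and 4 kept the call when Ctrl 1, 2 or 3 was left out, and each of the 5 did without any single hGFAP-Gnas library.

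Genes of synaptic release and of neuronal channels were lower too. In synaptic vesicle release 10 of 16 tested fell and 1 rose, and of 13 voltage-gated channels 11 fell. Syt1, the calcium sensor of release, was at 132, 178 and 156 FPKM in Ctrl and 2.64 to 99.8 (median 15.6) in hGFAP-Gnas, all below Ctrl (-3.21 ± 0.74, adjusted p = 0.0115). Kcna2, a potassium channel of basket cell terminals and axons, was at 49.4, 43.1 and 72.7 in Ctrl and 1.50 to 24.1 (median 3.59) with no overlap (-3.16 ± 0.69, adjusted p = 0.0101). Stx1a, a syntaxin of the release machinery, ran against the list and rose from 1.24, 1.91 and 2.33 to 5.43 to 18.3 with no overlap (2.08 ± 0.32, adjusted p = 0.00584). Cacna1g, a calcium channel that shapes the firing of Purkinje and nuclear neurons, fell by 2.27 on the log2 scale. Calls in the release list numbered 1, 1 and 2 without Ctrl 1, 2 or 3, and in the channel list 1, 1 and 3. With 1 hGFAP-Gnas library left out the ranges were 6 to 14 and 5 to 12. In the mean over the members, hGFAP-Gnas 1 was inside the Ctrl range in both lists, at 0.14 and -0.10 from the Ctrl mean.

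**Figure D3:**
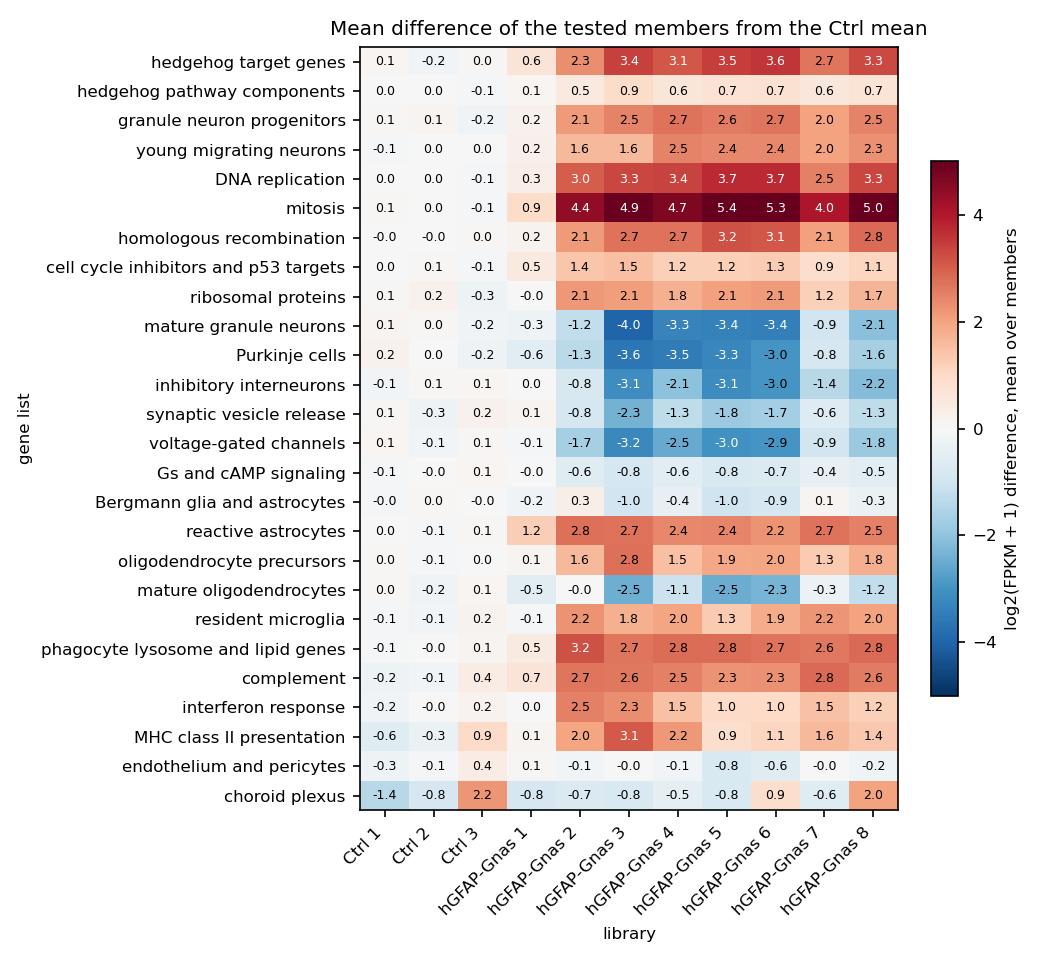
Mean difference from the Ctrl mean on the log2(FPKM + 1) scale, over the tested members of 26 gene lists (vertical axis) in each of the 11 libraries (horizontal axis), printed in each cell and colored blue below 0 and red above 0. Mitosis is 0.9 in hGFAP-Gnas 1 and 4.0 to 5.4 in the others, mature granule neuron genes are lowest in hGFAP-Gnas 3 to 6, and choroid plexus genes are high in Ctrl 3 and hGFAP-Gnas 8.

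Genes of reactive astrocytes rose, while most genes of resting Bergmann glia and astrocytes were not called. Of 15 reactive genes, 12 rose and 1 fell (median 2.52). Lcn2, the secreted siderophore-binding lipocalin, was at 0.805, 0.584 and 0.156 FPKM in Ctrl and 27.2 to 299 (median 139) in hGFAP-Gnas. hGFAP-Gnas 1 was at 27.2, far above every Ctrl library, and Lcn2 rose by 6.46 ± 0.60 (adjusted p = 0.000815). Gfap was at 47.9, 61.1 and 54.4 in Ctrl and 223 to 952 (median 452), all above Ctrl (3.05 ± 0.46, adjusted p = 0.00568), and Serpina3n, a serine protease inhibitor, at 5.09, 6.23 and 6.16 and 54.2 to 257 (3.66 ± 0.41). Steap4, Timp1, Osmr and Aspg rose by 3.20, 3.50, 1.65 and 1.82. Vim, the filament vimentin, was not called (0.94 ± 0.46), and Tnc, which Bergmann glia also make, fell from 11, 10.2 and 7.80 to 1.38 to 6.49 (-1.11 ± 0.32). Of 16 genes of Bergmann glia and astrocytes, 1 rose and 3 fell, the latter 1, 1 and 1 without Ctrl 1, 2 or 3 and 1 to 6 without 1 hGFAP-Gnas library. Hopx, a marker of Bergmann glia, fell from 171, 156 and 154 to 24.2 to 91.5, lowest in hGFAP-Gnas 1 (-1.83 ± 0.37, adjusted p = 0.00850), while Slc6a11, a GABA transporter of astrocytes, rose from 11.5, 11.4 and 44.0 to 53.1 to 98.7 (1.90 ± 0.35). Aqp4 and Aldh1l1 were not called (0.17 ± 0.42 and -0.20 ± 0.32). Of the reactive genes, 10, 10 and 12 were called without Ctrl 1, 2 or 3, and 13 were called without hGFAP-Gnas 1. When Ctrl 1, 2 or 3 was left out, 9, 9 and 9 of these 10 named calls held, and each of the 10 did without any single hGFAP-Gnas library.

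The oligodendrocyte lineage divided by stage. Of 13 precursor genes, 9 rose and 1 fell (median 1.48). Pdgfra, the receptor that keeps precursors dividing, was at 5.17, 5.41 and 6.19 FPKM in Ctrl and 11.1 to 143 (median 91.3) in hGFAP-Gnas, all above Ctrl (3.42 ± 0.65, adjusted p = 0.00759). C1ql1 was at 4.09, 5.31 and 5.43 in Ctrl, 7.92 in hGFAP-Gnas 1 and 80.8 to 394 in the others (4.22 ± 0.85). Olig2 and Cspg4 rose by 1.83 ± 0.41 and 1.48 ± 0.39. Precursor genes called higher numbered 3, 3 and 6 without Ctrl 1, 2 or 3. Of 14 genes of mature oligodendrocytes 3 fell, among them Opalin and Ugt8a, and the rest were not called in spite of a median of -1.40. The number that fell was 1, 0 and 1 without Ctrl 1, 2 or 3 and 2 to 7 without 1 hGFAP-Gnas library. Mog, a myelin protein, was at 41.2, 32.8 and 32.0 in Ctrl, 22.8, 41.6, 27.9 and 11.7 in hGFAP-Gnas 1, 2, 7 and 8, and 1.83, 16.4, 3.30 and 4.46 in hGFAP-Gnas 3, 4, 5 and 6. The range was wide, hGFAP-Gnas 2 was above every Ctrl library, and Mog was not called (-1.59 ± 0.76, adjusted p = 0.109). With Ctrl 1, 2 or 3 removed in turn, 3, 2 and 4 of the 6 called genes named here still passed, and each of the 6 did without any single hGFAP-Gnas library.

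Microglial and phagocyte genes rose. Of 13 genes of resident microglia, 8 rose and 0 fell (median 1.55), and of 17 genes of the phagocytic state, 15 rose (median 2.51). Csf1r, the receptor microglia need to survive, was at 9.99, 10.2 and 13.9 FPKM in Ctrl and 13.3 to 58.4 (median 43.3) in hGFAP-Gnas, where hGFAP-Gnas 1 was inside the Ctrl range (1.68 ± 0.35, adjusted p = 0.00929). Tmem119 and P2ry12, markers of resting microglia, were not called, with 0.79 ± 0.30 and 0.43 ± 0.72, and P2ry12 was listed at 0 in hGFAP-Gnas 5. Gpnmb, a glycoprotein of lipid-laden phagocytes, was at 0.956, 1.14 and 0.563 in Ctrl and 4.41 to 130.2 (median 87.4), all above Ctrl (5.01 ± 0.79, adjusted p = 0.00596). Cd68, a lysosomal protein, was at 3.25, 3.49 and 4.15 in Ctrl, 7.13 in hGFAP-Gnas 1 and 54.3 to 79.3 in the others (3.42 ± 0.57). Cst7, Clec7a, Lpl and Itgax rose by 3.56, 3.05, 2.99 and 1.76. Apoe was at 939.5, 1138 and 892 in Ctrl and 1095 to 4476 in hGFAP-Gnas and was not called (adjusted p = 0.0639). Without Ctrl 1, 2 or 3, phagocyte genes called higher numbered 9, 8 and 10 and resident microglia genes 4, 2 and 7. Of these 7 calls, 6, 5 and 7 stood without Ctrl 1, 2 or 3, and each of the 7 did without any single hGFAP-Gnas library.

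All 12 tested genes of complement rose (median 2.39). C1qb, a subunit of the first component, was at 14.4, 14.7 and 21.8 FPKM in Ctrl, 39.0 in hGFAP-Gnas 1 and 164 to 326 in the others, all above Ctrl (3.20 ± 0.49, adjusted p = 0.00568). C4b rose from 1.94, 2.30 and 4.21 to 15.1 to 75.5 (3.58 ± 0.39) and C3 from 0.0379, 0.154 and 1.52 to 0.966 to 45.9 with hGFAP-Gnas 1 in the Ctrl range (2.98 ± 0.74, adjusted p = 0.0144). Chemokine genes rose in 13 of 14, and Ccl2 and Ccl12, which attract monocytes, were at 1.20 to 44.9 and 2.71 to 39.5 in hGFAP-Gnas against at most 0.168 and 0.684 in Ctrl. With Ctrl 1, 2 or 3 left out, 6, 6 and 10 complement genes and 3, 2 and 8 chemokine genes were called higher. Genes induced by interferon rose in 12 of 20 (median 1.35), a count that was 6 after quantile normalization and 1, 1 and 3 without Ctrl 1, 2 or 3, and 4 to 18 without 1 hGFAP-Gnas library. Bst2, an antiviral membrane protein, was at 2.79, 4.65 and 4.50 in Ctrl and 4.10 to 128, with hGFAP-Gnas 1 inside the Ctrl range and hGFAP-Gnas 2 highest (2.63 ± 0.69, adjusted p = 0.0167). Of the genes of antigen presentation, 5 of 10 in class I and 4 of 7 in class II rose, and without Ctrl 1, 2 or 3 these counts were 0, 0 and 4 in class I and 1, 1 and 4 in class II. Cd74, the invariant chain, was at 2.80, 3.98 and 20.9 in Ctrl, high in Ctrl 3, and 8.65 to 129.8 in hGFAP-Gnas (2.61 ± 0.73, adjusted p = 0.0203). Of the 7 called genes named here, 4, 4 and 6 kept the call when Ctrl 1, 2 or 3 was left out, and each of the 7 did without any single hGFAP-Gnas library.

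Some markers of blood leukocytes were higher. Of 5 tested genes of monocytes and neutrophils 3 rose, and of 3 lymphocyte genes 1 did, where 26.1% of all genes were called higher. Without Ctrl 1, 2 or 3 these counts were 2, 2 and 2 and 1, 0 and 1. S100a8 and S100a9, abundant in neutrophils and monocytes, rose from at most 1.07 and 1.42 FPKM in Ctrl to 4.53 to 54.6 and 4.06 to 36.7 (2.97 ± 0.59 and 2.90 ± 0.54), highest in hGFAP-Gnas 3. Ngp and Mmp8, further neutrophil genes, stayed under 1 FPKM in every library and were not tested. Of the T cell genes Cd3d, Cd3e and Cd3g none reached 1 FPKM, and Cd4, which mouse macrophages and microglia can also express, rose from 0.0517, 0.0262 and 0.0700 to 0.187 to 6.12 (2.10 ± 0.46, adjusted p = 0.0102). The B cell gene Cd79a was at 23.2 in hGFAP-Gnas 3 and at most 2.66 in any other library. Of 5 perivascular macrophage genes 3 rose, among them Mrc1 and Pf4 (1.44 ± 0.33 and 1.55 ± 0.49), and 0, 0 and 1 did without Ctrl 1, 2 or 3. When Ctrl 1, 2 or 3 was left out, 3, 2 and 4 of these 5 named calls held, and each of the 5 did without any single hGFAP-Gnas library.

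Few genes of endothelium and pericytes were called. Of 15 genes of endothelium and pericytes, 0 rose and 1 fell (median -0.05), and Pecam1 was at 4.82, 5.18 and 8.34 FPKM in Ctrl and 3.75 to 10.2 in hGFAP-Gnas (0.06 ± 0.27). Ocln, a tight junction protein that other cells also express, was the one that fell (-1.37 ± 0.36, adjusted p = 0.0169). In the list of growing vessels 3 of 8 rose and 1 fell, where 38.9% of all genes were called, and without Ctrl 1, 2 or 3 the number that rose was 3, 3 and 3. Col4a1 and Col4a2, the collagen of basement membranes, rose from 2.77, 4.17 and 5.10 to 8.52 to 28.3 and from 2.90, 4.15 and 4.78 to 7.87 to 21.6 with no overlap (1.94 ± 0.32 and 1.48 ± 0.26), and Angpt2, a signal of vessel remodeling, rose by 1.02 ± 0.20. Vegfa fell from 34.9, 33.4 and 48.5 to 8.25 to 36.1, with hGFAP-Gnas 1 inside the Ctrl range (-1.09 ± 0.34, adjusted p = 0.0288). The hypoxia list it belongs to had 1 of 13 higher and 5 lower, the latter including Bnip3 (-1.17 ± 0.39) and Car9 (-1.42 ± 0.51). In the extracellular matrix list 6 of 18 rose (33.3%) and 2 fell (11.1%), near the 26.1% and 12.8% of all genes. Fbln2 and Lama1 were higher by 1.69 and 1.20. With Ctrl 1, 2 or 3 left out, 0, 0 and 0 hypoxia genes were lower and 3, 3 and 3 matrix genes higher, and with 1 hGFAP-Gnas library left out 2 to 7 and 4 to 10. With Ctrl 1, 2 or 3 removed in turn, 4, 4 and 4 of the 9 called genes named here still passed, and Bnip3 and Car9 lost the call without hGFAP-Gnas 3, 4, 5, 6 or 8.

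Markers of the choroid plexus and of blood were not called between the groups. None of the 8 choroid plexus genes and none of the 4 blood genes tested was called by limma, with 0 and 2 of them, in that order, at an unadjusted p under 0.05. Enpp2 was at 45.6, 43.6 and 415 FPKM in Ctrl and 22.3 to 275 in hGFAP-Gnas, high in Ctrl 3, hGFAP-Gnas 6 and hGFAP-Gnas 8. Hba-a2, a hemoglobin chain, was at 3.01, 5.27 and 8.36 in Ctrl and 0.248 to 9.22 in hGFAP-Gnas and was not called (-1.38 ± 0.53, adjusted p = 0.0587). The 18 brainstem and Hox genes summed to 1.42 to 17.0 FPKM in Ctrl and 3.31 to 35.2 in hGFAP-Gnas. Only 2 of them were tested and 1 was called higher, and 0, 0 and 0 were without Ctrl 1, 2 or 3. The mean difference of these tested genes was -0.86 to 0.50 in Ctrl and -0.46 to 2.14 in hGFAP-Gnas, with hGFAP-Gnas 1 and 7 inside the Ctrl range. The list of forebrain factors gave 4 of 4 tested genes higher, and 1, 1 and 2 without Ctrl 1, 2 or 3. Lhx2 was under 0.1 in each Ctrl library and at 3.57 to 14.1 (median 12.4) in hGFAP-Gnas, all above Ctrl (3.26 ± 0.37, adjusted p = 0.00168), and Neurod6 rose from 2.43, 2.72 and 2.18 to 1.81 to 27.0 with hGFAP-Gnas 1 below Ctrl (2.12 ± 0.57). Defining forebrain markers Emx1, Dlx1 and Dlx2 were under 0.2 in every library. Of the 2 called genes named here, 1, 1 and 1 kept the call without Ctrl 1, 2 or 3, and each of the 2 did without any single hGFAP-Gnas library.

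Some members of other signaling pathways were called. In the Notch list 8 of 16 rose and 0 fell. Dll3, a ligand that acts within the cell, was at 0.292, 0.310 and 0.361 FPKM in Ctrl and 1.44 to 32.0 (median 5.68) in hGFAP-Gnas, highest in hGFAP-Gnas 3 (2.36 ± 0.63, adjusted p = 0.0177). The ligand Jag1 rose by 1.45 ± 0.30 and the target Hey1 by 1.71 ± 0.52, while the receptor Notch1 was not called (-0.06 ± 0.22). In the WNT list 4 of 16 rose (25.0%) and 2 fell (12.5%), near the 26.1% and 12.8% of all genes. Beside Sfrp1, the members that rose included Sfrp2 (3.26 ± 0.58) and Nkd1, inhibitors of the pathway. Axin2, the usual WNT target, was not called (0.39 ± 0.23), and Wnt7a, which granule neurons make, fell from 29.2, 21.8 and 21.9 to 1.13 to 12.1 (-2.33 ± 0.55). Of the Hippo list 6 of 19 rose (31.6%) and 2 fell (10.5%), also near the shares of all genes. Tead2, a transcription factor of neural progenitors that partners Yap1, was at 2.38, 3.11 and 2.43 in Ctrl, 2.74 in hGFAP-Gnas 1 and 34.1 to 98.2 in the others (3.59 ± 0.80), whereas Yap1 itself was not called (-0.11 ± 0.18) and the kinase Lats2 fell (-0.90 ± 0.20). Members called higher without Ctrl 1, 2 or 3 numbered 2, 3 and 3 in the Notch, 2, 2 and 3 in the WNT and 0, 0 and 3 in the Hippo list, and without hGFAP-Gnas 1 the WNT list had 7. Of the 9 called genes named here, 2, 2 and 7 kept the call when Ctrl 1, 2 or 3 was left out, and each of the 9 did without any single hGFAP-Gnas library.

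Genes of BMP and TGF-beta signaling rose in 8 of 14 and fell in 1, with 5, 4 and 8 higher without Ctrl 1, 2 or 3. Id1 and Id3, targets of BMP signals, were at 19.8 to 95.9 and 23.4 to 103 FPKM in hGFAP-Gnas against 8.92, 10.9 and 9.73 and 16.4, 20.2 and 16.1 in Ctrl (1.86 ± 0.38 and 1.77 ± 0.37), and Tgfbr1, a receptor, rose by 1.73 ± 0.30. Each of these 3 genes was above Ctrl in all 8 knockouts. Noggin, the BMP antagonist encoded by Nog, fell from 5.59, 5.03 and 2.88 to 0.0628 to 3.11 (-1.32 ± 0.40, adjusted p = 0.0262). In the list of insulin-like growth factors 4 of 13 rose (30.8%) and 1 fell (7.69%), near the 26.1% and 12.8% of all genes. In this list 2, 1 and 4 were higher without Ctrl 1, 2 or 3. Igf1 rose from 1.21, 0.925 and 0.931 to 1.36 in hGFAP-Gnas 1 and 3.13 to 5.26 in the others (1.18 ± 0.26), and the adaptor Irs1 from 5.55, 5.24 and 6.30 to 6.83 and 19 to 63.8 (2.17 ± 0.52), while Igf2, a growth factor often raised in hedgehog tumors, was at 23.3, 38.2 and 59.1 in Ctrl and 14.9 to 40 in hGFAP-Gnas and was not called (-0.54 ± 0.33). Igfbp6 fell in all 8 knockouts, from 12, 13.7 and 13.6 to 1.14 to 5.11 (-2.03 ± 0.29, adjusted p = 0.00526). When Ctrl 1, 2 or 3 was left out, 5, 4 and 6 of these 7 named calls held, and each of the 7 did without any single hGFAP-Gnas library.

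All 19 tested genes of ribosomal proteins rose (median 1.56). Rplp0, the stalk protein, was at 124, 134 and 97.7 FPKM in Ctrl, 129 in hGFAP-Gnas 1 and 462 to 1002 in the other 7 (2.41 ± 0.55, adjusted p = 0.0110). hGFAP-Gnas 1 was inside the Ctrl range and the others were well above it. The FPKM of all genes differed in spread between libraries, and the median difference over all genes was 0.19. After quantile normalization it was -0.01, the share of calls that were higher was 49.0% instead of 67.1%, and 18 of the ribosomal genes were still higher. Without Ctrl 1, 2 or 3, 1, 1 and 4 of the 19 were called. Many ribosomal protein genes have near-identical pseudogenes, so their levels depend on how shared reads were placed.

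Genes of glycolysis were mostly lower, 10 of 16 against 1 higher (median -1.0), but the number lower was 0, 0 and 1 without Ctrl 1, 2 or 3 and 5 to 12 without 1 hGFAP-Gnas library. Eno2, the enolase of neurons, was at 439, 459 and 382 FPKM in Ctrl and 17.1 to 322 (median 55.1) in hGFAP-Gnas, all below Ctrl (-2.77 ± 0.90, adjusted p = 0.0335). Aldoc, the aldolase of Purkinje cells and astrocytes, fell by 2.20 on the log2 scale, and Hk2, the hexokinase of proliferating cells, was the one that rose, from 4.64, 4.27 and 4.55 to 4.50 to 91.0 with hGFAP-Gnas 1 in the Ctrl range (3.08 ± 0.72, adjusted p = 0.0120). Oxidative phosphorylation had 3 of 16 lower, 9 after quantile normalization, 0, 0 and 0 without Ctrl 1, 2 or 3 and 0 to 10 without 1 hGFAP-Gnas library. Serine and one-carbon genes rose in 6 of 10, for example Psat1 from 36.9, 35.9 and 40.2 to 45.7 to 302 (2.14 ± 0.47), and in 0, 0 and 1 without Ctrl 1, 2 or 3. Sterol synthesis had 0 higher and 2 of 13 lower (15.4%, near the 12.8% of all genes), and 7 higher without hGFAP-Gnas 1. Of 9 genes often used as references 5 were called higher and 0 lower, and without Ctrl 1, 2 or 3 1, 1 and 2 were higher. Gusb was at 5.72, 5.76 and 5.66 in Ctrl and 7.19 to 30.1 in hGFAP-Gnas (1.77 ± 0.34), and Ywhaz (0.04 ± 0.14) and Gapdh (-0.06 ± 0.19) were not called. After quantile normalization 2 reference genes were higher and 1 lower, so the direction of small changes depends on the scaling. With Ctrl 1, 2 or 3 removed in turn, 1, 1 and 3 of the 5 called genes named here still passed, and Aldoc and Eno2 lost the call without hGFAP-Gnas 3, 4, 5, 6 or 8.

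The 15 largest and 15 smallest differences among called genes included 7 small RNAs, whose FPKM is unreliable at such lengths and which are not described. The largest among the rest, besides Lcn2, Igfbpl1, Insm1 and Nhlh1 above, included Miat, a long noncoding RNA, at 1.99, 1.55 and 5.62 FPKM in Ctrl and 44.4 to 386 (median 205) in hGFAP-Gnas (5.55 ± 0.63, adjusted p = 0.00168). hGFAP-Gnas 1 was at 44.4, well above Ctrl. Hsd11b2, which inactivates glucocorticoids and is known in granule progenitors, was at 0.454, 0.276 and 0 in Ctrl and 3.31 to 159 (5.48 ± 0.86), and the uncharacterized 2610109H07Rik rose by 5.97 ± 0.93. At the lower end, Grm4, the glutamate receptor of parallel fiber terminals, was at 115, 162 and 126 in Ctrl and 1.90 to 35.9 (median 9.73), all below Ctrl (-3.60 ± 0.66, adjusted p = 0.00700). Dao, D-amino acid oxidase of cerebellar astrocytes, was at 44.2, 52.1 and 33.8 in Ctrl and 0.205 to 24.5 (-3.51 ± 0.99), and Olfm3 and Rgs8, the latter a regulator of G protein signaling in Purkinje cells, fell by 3.21 and 3.06 on the log2 scale. Of these 11 calls, 8, 8 and 9 stood without Ctrl 1, 2 or 3, and Rgs8 lost the call without hGFAP-Gnas 3, 4, 5, 6 or 8.

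One group of neighboring genes was below Ctrl in every knockout, hGFAP-Gnas 1 included. Tmem181b-ps was among the smallest differences, and the other 3 genes, like Txnip at the end, were singled out after their values were seen. Tmem181b-ps was at 91.0, 69.8 and 88.6 FPKM in Ctrl and 5.08 to 18.7 in hGFAP-Gnas (-3.13 ± 0.37, adjusted p = 0.00185). Tmem181a was at 65.9, 51.9 and 69.4 in Ctrl and 8.80 to 19.2 (-2.32 ± 0.21, adjusted p = 0.000712), and Tmem181c-ps and Dynlt1e fell by 2.60 and 1.84. The table places them on chromosome 17 of mm9 at 6270474 to 6305783 for Tmem181a, 6438149 to 6450142 for Tmem181b-ps, 6817348 to 6825643 for Tmem181c-ps and 6851323 to 6860656 for Dynlt1e. In all 4 genes the 8 knockouts lay below the 3 Ctrl libraries with no overlap. They are near-identical copies of 2 gene families, so reads shared between copies make each value uncertain. The strain background of the knockouts beyond the C57BL/6 label is not given, and its part in this result was not tested. Txnip, a sensor of glucose, was likewise above Ctrl in all knockouts including hGFAP-Gnas 1, with 9.07, 9.64 and 8.34 in Ctrl and 62.2 to 143 in hGFAP-Gnas (3.31 ± 0.23). Of the 5 called genes named here, 5, 5 and 5 kept the call when Ctrl 1, 2 or 3 was left out, and each of the 5 did without any single hGFAP-Gnas library.

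Across the 8 knockout mice the level of division genes was set against neuronal and glial genes, 5 relations in all with Mki67 on the log2(FPKM + 1) scale. Gabra6 gave Pearson's r = -0.707 (exact permutation p = 0.0144, adjusted 0.0360) and Spearman's rho = -0.571 (exact permutation p = 0.151, adjusted 0.252). Calb1 gave r = -0.683 (exact permutation p = 0.0139, adjusted 0.0360) and rho = -0.595 (exact permutation p = 0.132, adjusted 0.252). Both rested on hGFAP-Gnas 1 and 2, the libraries farthest from the median of Mki67: without them r was -0.487 for Gabra6 and -0.491 for Calb1. With Mog r was -0.564 (exact permutation p = 0.123, adjusted 0.154) and rho -0.762 (exact permutation p = 0.0368, adjusted 0.184), and r without those 2 libraries was -0.737. With Cd68 r was 0.896 (exact permutation p = 0.0906, adjusted 0.151) and rho 0.262 (exact permutation p = 0.536), and r was 0.491 without them. With Gfap r was 0.172 (exact permutation p = 0.786, adjusted 0.786) and rho -0.286 (exact permutation p = 0.501), and without them r was -0.914, so this relation too hung on which libraries were included. hGFAP-Gnas 2 and 7 had many division transcripts and kept Gabra6 and Calb1 nearer to Ctrl, while hGFAP-Gnas 3 and 4, with more Mki67, had lost most of both.

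**Figure D4:**
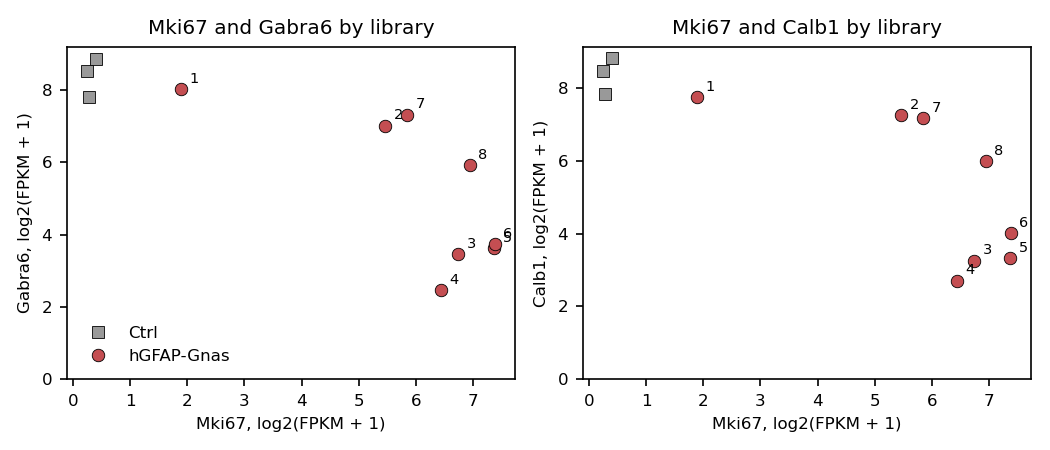
Mki67 (horizontal axis) against Gabra6 (left) and Calb1 (right), all on the log2(FPKM + 1) scale, for the 3 Ctrl libraries (squares) and hGFAP-Gnas 1 to 8 (numbered circles). hGFAP-Gnas 1 lies near Ctrl, hGFAP-Gnas 2, 7 and 8 combine high Mki67 with partly kept neuronal genes, and hGFAP-Gnas 3 to 6 are lowest in both neuronal genes.

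The hGFAP-Gnas libraries were also set against the 8 Olig1-Gnas libraries, in which the same gene was removed by a Cre of the oligodendrocyte lineage and of some granule progenitors. Few genes were called: 59 of 14386 tested were called (0.41%), 38 higher in hGFAP-Gnas (0.264%) and 21 lower (0.146%). Gli1 (-0.77 ± 0.24, adjusted p = 0.139), Mycn (-0.71 ± 0.55), Atoh1 (-0.97 ± 0.71) and Mki67 (-1.19 ± 0.62) were not among them, where the values are hGFAP-Gnas minus Olig1-Gnas, and the intervals of these differences are wide. Y-linked signal differed between the groups, being present in 7 of 8 hGFAP-Gnas and 2 of 8 Olig1-Gnas libraries, and with it as a term 3 genes were called, Prm1, Dlx6 and Gpat2. The knockouts come from 2 deposited tables, in which Ctrl 2 and 3 hold identical values, while in Ctrl 1 the values of 5106 genes are not the same. Over genes above 0 in both, the ratio of the Ctrl 1 values had a median of 1.0. Its 5th and 95th percentiles were 0.9987 and 1.0018. The genes described next were chosen after their values were seen. Gdf10, a secreted factor of Bergmann glia, was at 103, 151 and 75.9 FPKM in Ctrl, 39.5 to 115 (median 57.0) in hGFAP-Gnas and 1.19 to 27.0 (median 13) in Olig1-Gnas (2.42 ± 0.46, adjusted p = 0.0264). The knockouts did not overlap, and hGFAP-Gnas stayed nearer to Ctrl. Tspan2, a tetraspanin of oligodendrocytes, was at 6.49 to 32.6 in hGFAP-Gnas and 1.77 to 6.83 in Olig1-Gnas, overlapping only at the edge (1.66 ± 0.34). Mrc1 was at 1.25 to 7.19 and 0.710 to 2.07 (1.26 ± 0.23), with hGFAP-Gnas 1 inside the Olig1-Gnas range.

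Some of the differences were in genes that neither cerebellar neurons nor glia are known for. Prm1 was at 48.4 to 199 FPKM in hGFAP-Gnas and at most 0.720 in Olig1-Gnas, the largest difference of all (6.38 ± 0.25, adjusted p = 9.71e-11), and, as said above, at 73.2 in Ctrl 3. Krt10, a keratin, had 1.80 to 6.49 in Olig1-Gnas, 2.06 in hGFAP-Gnas 1 and 17.7 to 59.6 in the other 7 hGFAP-Gnas libraries (2.52 ± 0.49). Dmrtb1, a germ cell factor, was at 0.703 to 24.4 and 0.0786 to 0.532 (2.63 ± 0.49), with every hGFAP-Gnas library above every Olig1-Gnas library. In the other direction Gdpd3, a lysophospholipase, had levels of 1.63 to 62.6 in hGFAP-Gnas, 27.1, 20.9 and 9.48 in Ctrl and 90.2 to 169.7 in Olig1-Gnas (-4.46 ± 0.58, adjusted p = 0.00268). Dlx6, a factor of the forebrain, ranged over 5.17 to 52.5 in Olig1-Gnas but reached at most 2.71 in hGFAP-Gnas (-3.46 ± 0.39).

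**Figure D5:**
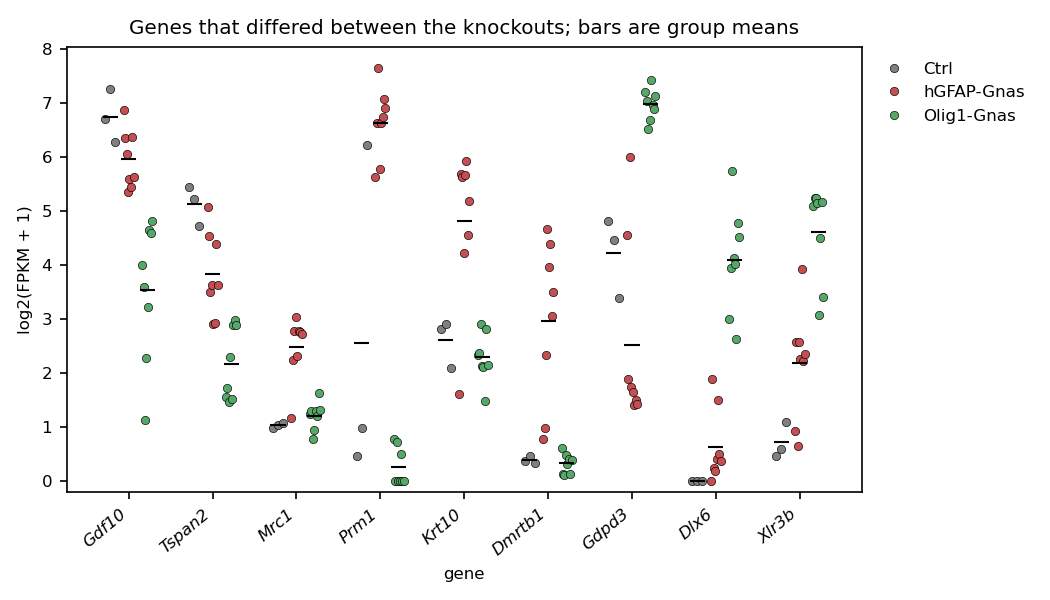
Level of 9 genes called between the knockouts on the log2(FPKM + 1) scale (vertical axis), with 1 point for each Ctrl, hGFAP-Gnas and Olig1-Gnas library and bars at group means. Prm1 separates hGFAP-Gnas and 1 Ctrl library from all Olig1-Gnas libraries, and Gdpd3 and Dlx6 are highest in Olig1-Gnas.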

How the data were processed

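RNA of whole cerebellum was sequenced on a HiSeq2000, per the labels' protocols and design text. The deposited values are FPKM per gene and library, made by the authors with TopHat and Cufflinks on mm9 (versions not given), per the submitters' processing notes. Depth is not stated; its ratio between libraries was read from the steps between values under 0.5 FPKM. Of 22193 genes in the table, 14305 had at least 1 FPKM in at least 3 of the 11 libraries and were tested on log2(FPKM + 1) with limma 3.58.1 (trend and robust moderation) in R 4.3.3, with Benjamini-Hochberg adjustment over all of them. The offset understates changes of genes with low values. The same model was fitted to hGFAP-Gnas and Olig1-Gnas. Zeros were used as listed, since 2950 genes are at 0 in all 11 libraries and 385 at 0 in some libraries and at 1 FPKM or more in all others. Single values and relations were tested by exact permutation with scipy 1.17.1.

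Genes were grouped into 54 lists with 731 genes, 664 of them tested. The members and lists were chosen with earlier results of these data known. Per list, at most 5 genes past the threshold were named, by size of difference, together with every hedgehog target, every granule progenitor gene, and the 15 genes at either end of the range of differences. Further list members are given as values. A few genes that this rule covers are counted in their lists but not reported here. Labels do not say more on the replicates than that each library is a mouse. Alternatives were other offsets, filters, scalings, moderation and thresholds, depth, sex-linked signal or replicate number as terms, subsets of libraries, and each library left out.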

Additional observations from a re-analysis of the deposited data

Results flagged for a closer look

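Of 208 genes named in the text and measured in the 8 hGFAP-Gnas libraries, 65 had 1 library set apart from the other 7 on the log2(FPKM + 1) scale by more than Dixon's critical value at the level of 0.05, which chance exceeds in about 1 group in 20. The genes share libraries and are not independent. In most of them hGFAP-Gnas 1 was the lowest. Its levels in hedgehog target and component genes were 9.09 for Ccnd1, 7.22 for Ccnd2, 3.54 for Mycn, 8.75 for Sfrp1, 2.65 for Evc and 8.71 for Smo FPKM. For genes of granule progenitors and young neurons they were 0.937 for Atoh1, 3.49 for Cxcr4, 5.16 for Igfbpl1, 7.91 for Insm1, 3.4 for Nhlh1, 4.68 for Nhlh2, 10.8 for Cd24a, 27.3 for Marcksl1, 2.48 for Sox11, 162 for Stmn1 and 1.81 for Neurod6. For genes of replication, mitosis and recombination they were 1.86 for Birc5, 0.582 for Brca1, 1.86 for Ccnb1, 1.22 for Cdk1, 0.520 for Fancd2, 4.85 for Mcm6, 2.70 for Mki67, 39.6 for Pcna, 2.11 for Plk1, 0 for Rad54l and 2.69 for Top2a. For cell cycle inhibitors, p53 targets and chromatin regulators they were 3.88 for Cdkn2c, 1.10 for Eda2r, 13.1 for Trp53, 6.55 for Ezh2, 9.16 for Hmgb2 and 1.87 for Uhrf1. For microglial, macrophage and complement genes they were 38.9 for C1qb, 15.1 for C4b, 0.187 for Cd4, 7.13 for Cd68, 0.626 for Clec7a, 13.3 for Csf1r, 4.41 for Gpnmb, 0.160 for Itgax, 1.25 for Mrc1, 0.375 for Pf4 and 2.87 for Tmem119. For other genes they were 3.99 for 2610109H07Rik, 7.92 for C1ql1, 7.19 for Gusb, 4.50 for Hk2, 3.31 for Hsd11b2, 1.36 for Igf1, 2.06 for Krt10, 5.38 for Nkd1, 129 for Rplp0, 1.25 for Steap4 and 2.74 for Tead2. hGFAP-Gnas 1 was the highest, and apart, in Bdnf (1.67 FPKM against 0.264 to 0.546 in the others), Egr4 (1.48 FPKM against 0.0465 to 0.375 in the others), Hba-a2 (9.22 FPKM against 0.248 to 1.70 in the others), Prkacb (123 FPKM against 66.9 to 77.9 in the others) and Tcf7l2 (36.2 FPKM against 0.944 to 2.61 in the others). Other libraries stood apart in Cd79a (highest in hGFAP-Gnas 3 at 23.2 FPKM, others 0.385 to 2.66), Gapdh (highest in hGFAP-Gnas 2 at 98.0 FPKM, others 50.6 to 64.4), Nkx2-2 (highest in hGFAP-Gnas 3 at 14.1 FPKM, others 3.95 to 6.48) and Osmr (highest in hGFAP-Gnas 3 at 7.21 FPKM, others 3.22 to 4.69). 

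The knockouts made with hGFAP-Cre and Olig1-Cre differed, by limma's test of the difference itself, in Dlx6 (-3.46), Dmrtb1 (2.63), Gdf10 (2.42), Gdpd3 (-4.46), Krt10 (2.52), Mrc1 (1.26), Prm1 (6.38) and Tspan2 (1.66) on the log2(FPKM + 1) scale, hGFAP-Gnas minus Olig1-Gnas, among the genes named in the text. Their ranges stand in the results above. Y-linked signal also differs between these groups, and of these genes Prm1 and Dlx6 were called with a term for it.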

How the results depend on the processing

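The count of 5570 called genes was 5248 to 5878 under another offset, filter of none, quantile or upper quartile scaling, no trend, all 19 libraries in 1 fit, zeros as missing and terms for depth or Y-linked signal, and 4768 with a filter of 5 FPKM. It moved to 11162 with array weights, 3116 at 2-fold or more, 921 at adjusted p under 0.01, 9 in the deeper and 2341 in the shallower libraries, and 663 in the libraries with Y-linked signal, a subset chosen after seeing the data. Ctrl 3 is the only Ctrl among the shallower libraries, so that fit has no Ctrl spread. Its count thus cannot be set against the main count. The sign changes listed below for the shallower libraries rest on Ctrl 3 alone as well. Leaving out 1 library gave 818 to 8164. The replicate number does not pair the mice: same-numbered Ctrl and hGFAP-Gnas libraries correlated by 0.0269, 0.124 and -0.0975. As a replicate block it left 0 calls by limma (2654 at unadjusted p under 0.05). In that fit hGFAP-Gnas 4 to 8 have no Ctrl of the same number, so among the knockouts only hGFAP-Gnas 1 to 3 inform the group difference. The 0 calls thus cannot be set against the main count. The 59 calls between the knockouts became 35 with a filter of 5 FPKM, 25 with the replicate block, 166 with a term for depth and 3 with a term for Y-linked signal. The Gnas difference ranged from -4.15 to 0.67, the latter without Ctrl 2. These causes were not tested. Over 208 named genes and all alternatives, 4793 comparisons kept direction and side of the threshold, 899 lost the call, 60 gained one and 52 changed sign. The sign changed, on the log2 scale, with a term for Y-linked signal Notch1 (0.0188), with array weights Enpp2 (0.66), Pecam1 (-0.00221), Sox2 (-0.0192), Ttr (3.61), Yap1 (0.00354), Ywhaz (-0.0203) and Zic5 (0.11), in the deeper libraries Cntn2 (-0.17), Gapdh (0.0243), Notch1 (0.0959), Sst (1.72), Ttr (0.25), Ywhaz (-0.00868) and Zic1 (-0.17). It also changed in the libraries with Y-linked signal Enpp2 (0.25), Sst (0.33), Ttr (2.61), Yap1 (0.0186) and Ywhaz (-0.0142), after quantile normalization Pecam1 (-0.16), Sox2 (-0.0715) and Ywhaz (-0.0923), with the replicate number as a block Aldh1l1 (0.0313), Aqp4 (-0.45), Cntn2 (-0.64), Gapdh (0.14), Notch1 (0.18), Sst (1.12) and Zic1 (-0.32), in the shallower libraries Dusp1 (0.23), Fos (0.30), Neurod1 (0.51), P2ry12 (-0.0284), Pecam1 (-0.67), Sox2 (-0.0408), Tcf7l2 (-0.23) and Zic5 (0.38), after upper quartile scaling Pecam1 (-0.0494), Sox2 (-0.0153) and Ywhaz (-0.0960). With 1 library left out the difference ranged across 0 for Enpp2 (-1.40 to 0.21), Gapdh (-0.16 to 0.0171), Notch1 (-0.14 to 0.00573), Pecam1 (-0.0632 to 0.28), Sst (-1.02 to 0.0509), Ttr (-2.88 to 2.11), Yap1 (-0.19 to 0.0123) and Ywhaz (-0.0227 to 0.0962). All but Dusp1 of these were not called to begin with. The relations kept their side of the threshold under both alternatives. Depth is known only as a ratio, so no counting interval can be given.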
